A study of Mus musculus with 2 samples.

Results

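Glutamate receptors and transporters were followed as 29 genes of the mouse hindbrain at embryonic day 11.5 (E11.5). The genes were taken by symbol from the 43346 Ensembl genes of the deposited tables, of which 21474 are protein-coding, and all 29 were found. They comprised 17 ionotropic receptor subunits, 7 metabotropic receptors, 3 vesicular transporters and 2 plasma membrane transporters. Total RNA longer than 200 nt from embryos of strain B6NCrl, 10 ng per library, was sequenced in 2 biological replicates that form 1 group. Pool 1 combined the hindbrains of 109 male and female embryos and pool 2 those of 88, with 1 library per pool. There was no second condition, so values were compared between genes and between the pools. Levels are in TPM, transcripts scaled to a fixed library total, which corrects for transcript length, and are given for each pool or as mean ± SD over the 2 pools.

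Glutamate is the main excitatory transmitter of the brain. Vesicular transporters load it into synaptic vesicles, AMPA, NMDA and kainate receptors open as ion channels when it binds, metabotropic receptors signal through G proteins, and plasma membrane transporters take it up again from the extracellular space. At this stage the hindbrain holds dividing progenitors beside its first neurons, which extend axons before most synapses form.

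Vesicular transport rested almost wholly on Slc17a6, while the AMPA class had the highest summed level of the receptor classes. Kainate receptor genes followed, and NMDA receptor genes were low. A gene was called detected where each pool had 1 TPM or more, which held for 15 of the 29 genes, against 59.4% of all protein-coding genes. A further 2 genes reached it only in pool 1 (Grin2b and Grm7), 3 only in pool 2 (Grin3a, Grik4 and Slc17a8), and 9 in neither. The 7 genes with at least 5 TPM in both pools were Slc17a6, Gria2, Slc1a2, Gria4, Grm2, Grik2 and Grik5. The median TPM of the 29 genes was 1.34 ± 0.0566, with 1.30 in pool 1 and 1.38 in pool 2, and that of all protein-coding genes was 3.86 ± 0.127. Together the 29 genes took 0.0303% of the counts in pool 1 and 0.0339% in pool 2. In whole tissue, fewer cells of a type and less RNA per cell cannot be told apart.

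**Figure D1:**
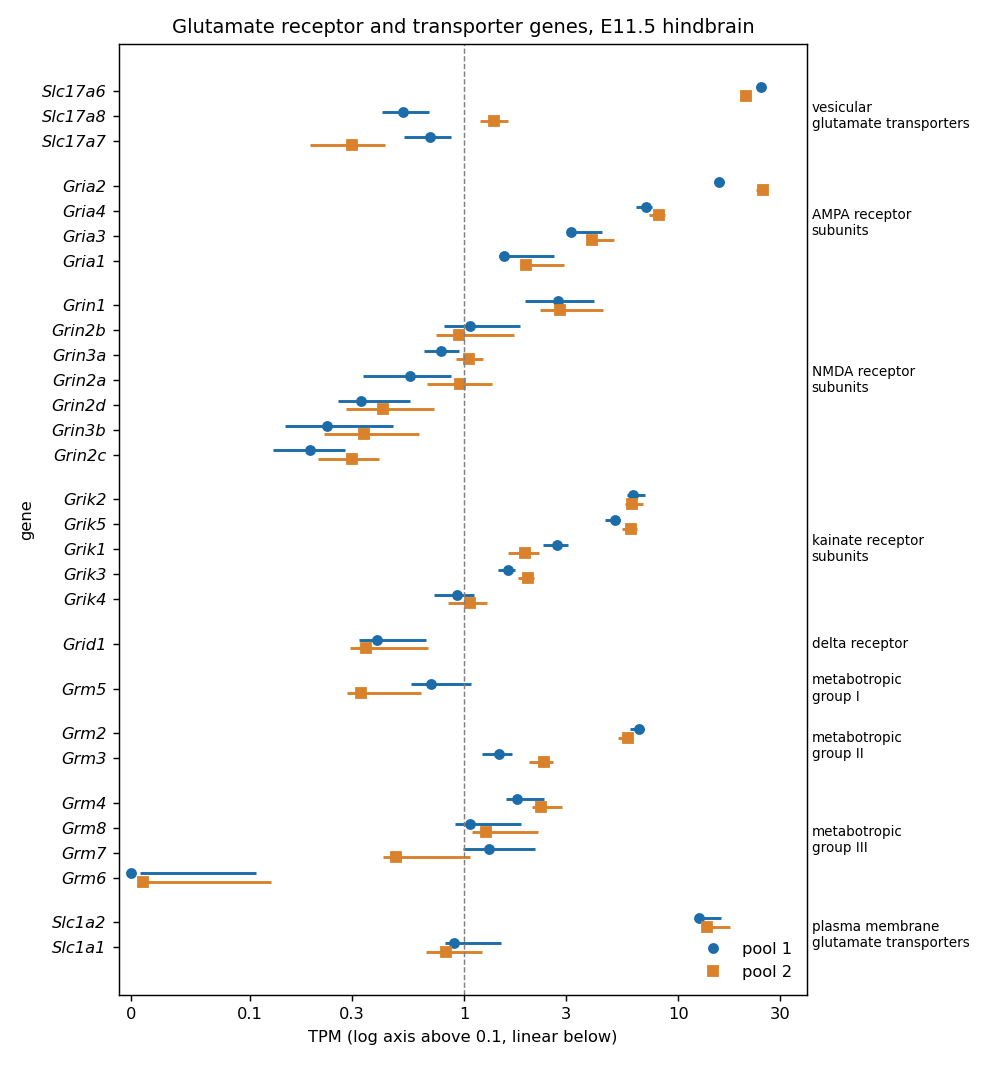
TPM of each of the 29 genes (vertical axis, grouped by class) in pool 1 (blue circles) and pool 2 (orange squares), with horizontal bars for the deposited TPM interval; the TPM axis is logarithmic above 0.1 and linear below, and the dashed line marks 1 TPM. Slc17a6, Gria2 and Slc1a2 lie furthest to the right, most NMDA receptor genes lie near or left of the dashed line, and Grm6 lies at 0 or 0.01 TPM, outside its own intervals.

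The libraries held 45340440 expected counts in pool 1 and 41261544 in pool 2, and added spike-in RNA took 16.2% and 22.2% of the TPM. All 10 neuronal markers were detected, with a median of 137 TPM, as were all 7 progenitor markers. Hindbrain position genes were detected in 6 of 7 cases and forebrain genes in 0 of 6, whose median was 0.203 TPM. Of 5 astrocyte markers 2 were detected, with Gfap at 0.15 and 0.08 TPM. Skeletal muscle markers, detected in 4 of 6 cases, summed to 58.6 TPM in pool 1 and 26.1 TPM in pool 2, and all 5 with a mean of at least 1 TPM were lower in pool 2. Markers of sensory ganglia summed to 194 and 147 TPM, and 7 of 8 had lower values in pool 2 once scaled to the median protein-coding gene. By the same scaling, 50% of protein-coding genes with a mean of at least 1 TPM were higher in pool 2.

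Among the vesicular transporters, Slc17a6, which encodes VGLUT2, had 24.4 TPM in pool 1 and 20.7 TPM in pool 2, from 3027 and 2472 reads. It was the most abundant of the 29 genes by mean TPM, and its deposited intervals (23.1 to 24.8 and 19.5 to 21.1) did not overlap. Intervals of the pools also did not overlap for 43.8% of protein-coding genes with a mean of at least 1 TPM. Slc17a6 held 93.9% ± 1.96 of the vesicular TPM. Slc17a8, which encodes VGLUT3 and is known from serotonergic raphe neurons and other cells, had 0.52 TPM from 67 reads in pool 1 and 1.38 TPM from 170 reads in pool 2. Slc17a7, which encodes VGLUT1 and becomes the main form in the adult cortex, had 0.69 TPM from 58 reads and 0.30 TPM from 24 reads. By TPM the minor transporters thus exchanged order between the pools, and the intervals of each did not overlap between the pools either. Within pool 1, however, the intervals of Slc17a8 (0.415 to 0.682) and Slc17a7 (0.523 to 0.873) overlapped. By reads Slc17a8 was above Slc17a7 in both pools. All reads of each gene fell on 1 transcript, so no reads were shared out between transcripts.

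A list of 7 serotonergic genes was made after these values were seen, and 5 had a mean of at least 1 TPM. Of these 5, 4 were higher in pool 2 once scaled to the median protein-coding gene, against 50% of protein-coding genes. Those 4 were Fev, Ddc, Gata2 and Gata3. The exception was Slc18a2, with 13.5 and 11.7 TPM and a scaled log2 ratio of -0.07. The transcription factor gene Fev had 0.95 and 2.07 TPM. Outside that count, with means under 1 TPM, the serotonin-synthesis enzyme gene Tph2 had 0.43 and 1.15 TPM. The serotonin transporter gene Slc6a4, also with a mean under 1 TPM, had 0.58 and 1.40 TPM. The list summed to 44.8 and 53.5 TPM, and none of its genes was at 0. Most of the sum came from Gata3 (14.0 and 15.8 TPM), Slc18a2, Gata2 (9.13 and 11.5 TPM) and Ddc (6.28 and 9.90 TPM). The part of serotonergic cells in the higher Slc17a8 value was not tested.

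For comparison with inhibitory transmission, Slc32a1, the vesicular transporter of GABA and glycine, had 1.42 and 1.98 TPM. The log2 ratio of Slc17a6 to Slc32a1 was 4.10 in pool 1 and 3.39 in pool 2, or 3.75 ± 0.505. Both genes moved the ratio the same way, Slc17a6 being lower and Slc32a1 higher in pool 2.

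AMPA receptors are tetramers of the products of Gria1 to Gria4 and carry most fast excitation. The 4 genes were all detected and summed to 27.3 TPM in pool 1 and 38.9 TPM in pool 2, or 33.1 ± 8.24. Gria2, whose edited subunit makes the channel impermeable to calcium, had 15.5 and 24.9 TPM from 1959 and 2529 reads. Gria4 had 7.10 and 8.16 TPM, Gria3 had 3.16 and 3.96 TPM, and Gria1, a subunit prominent in the adult hippocampus, had 1.54 and 1.94 TPM. The order of the genes was the same in both pools, and each was higher in pool 2. The intervals of the pools overlapped for Gria1, Gria3 and Gria4 and did not for Gria2.

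The gene values of the AMPA class included transcripts that encode no full protein. Transcripts annotated as retained-intron, processed or subject to nonsense-mediated decay, called non-coding below, held 53.9% of Gria2 TPM in pool 1 and 71.2% in pool 2. Protein-coding transcripts of Gria2 summed to 7.14 and 7.17 TPM, so that the pools hardly differed. The difference between the pools lay mostly in 1 retained-intron transcript, Gria2-208, of 1975 nt, which had 0 TPM in pool 1 and 7.44 TPM from 394 reads in pool 2. Its intervals, up to 0.901 TPM in pool 1 and from 5.54 TPM in pool 2, did not overlap. Every base of Gria2-208 also lies in another quantified transcript of the gene, so no read can be its own by position alone. Without it Gria2 stood at 15.5 and 17.4 TPM. Another retained-intron transcript, Gria2-206, has 723 nt that no other Gria2 transcript holds and had 4.29 and 6.06 TPM, with intervals that did not overlap. Gria2-204, with 2048 nt of its own, had 1.75 and 2.12 TPM.

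Gria3 also carried non-coding transcripts, at 42.5% and 51.0% of its TPM. Its protein-coding TPM was 1.81 and 1.94. The non-coding transcript of Gria1 held no reads. Gria4 has no quantified transcript annotated as non-coding, so a non-coding share could not be measured for it. The short coding transcript Gria4-203, of 2338 nt with a coding length of 1299 nt, held 53.9% and 56.1% of Gria4 TPM, but fewer reads (252 and 289) than the 5441-nt Gria4-202 (482 and 486). Over protein-coding transcripts Gria4 held 41.4% ± 1.49 of AMPA TPM and Gria2 39.0% ± 2.31, against 23.5% ± 3.58 and 60.3% ± 5.05 over all transcripts. Over coding transcripts Gria2 and Gria4 were level in pool 1 (7.14 and 7.10 TPM). In pool 2 Gria4 was above Gria2 (8.16 and 7.17 TPM). However, Gria2 had more coding reads in both pools (1070 and 1091, against 766 and 830). Of the Gria4 values, the short Gria4-203 made up 3.82 and 4.58 TPM. Gria4-202, with a coding length of 2706 nt, had 3.07 and 3.22 TPM.

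**Figure D2:**
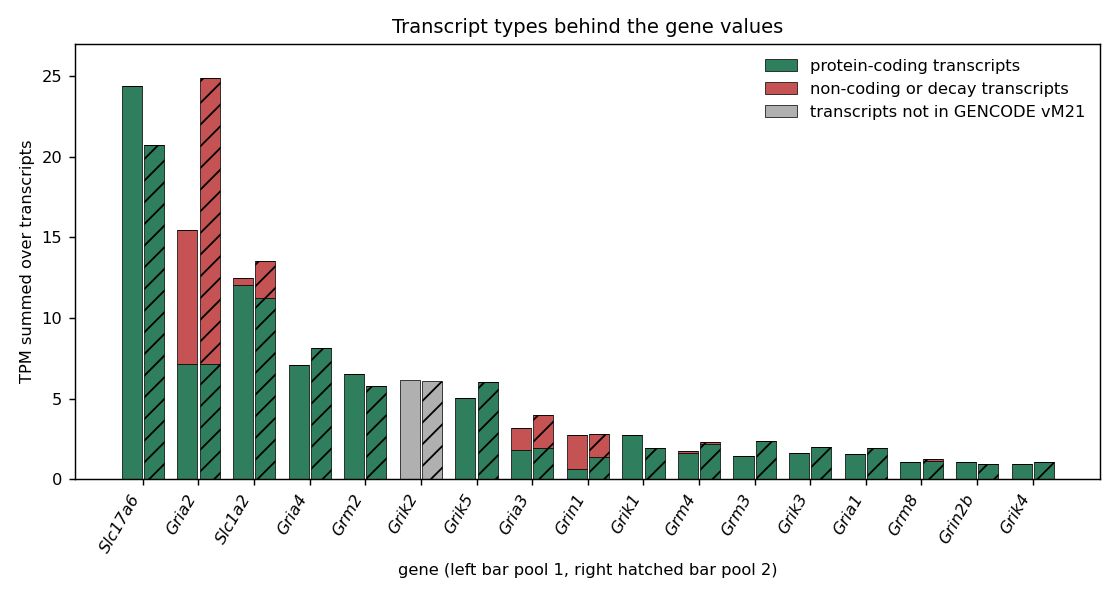
TPM summed over protein-coding transcripts (green), non-coding or decay transcripts (red) and transcripts absent from GENCODE vM21 (grey) for the 17 genes with a mean of at least 1 TPM; the left bar is pool 1 and the right, hatched bar pool 2. The coding part of Gria2 is level between the pools at 7.14 and 7.17 TPM, Grin1 is mostly red in pool 1, and Grik2 is grey.

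Each AMPA receptor gene has a pair of neighbouring 115-nt exons, flop upstream and flip downstream, of which a mature messenger normally keeps 1. They encode part of the ligand-binding domain next to the last membrane segment, and flip forms are known to desensitize more slowly than flop forms in most subunits and to prevail before birth. The exon sequences of Gria2 and Gria4, both of which had reads on transcripts of either form in both pools, are shown 5′ to 3′ on the gene's strand. Capitals mark the bases that differ between the flop and the flip exon of the same gene, 36 of 115 in Gria2 and 31 of 115 in Gria4. Sequences come from the GENCODE vM21 transcripts on GRCm38.
Gria2 flop: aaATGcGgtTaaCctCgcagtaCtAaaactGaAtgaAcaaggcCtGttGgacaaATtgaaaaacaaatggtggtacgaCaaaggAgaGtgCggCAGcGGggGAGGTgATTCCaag
Gria2 flip: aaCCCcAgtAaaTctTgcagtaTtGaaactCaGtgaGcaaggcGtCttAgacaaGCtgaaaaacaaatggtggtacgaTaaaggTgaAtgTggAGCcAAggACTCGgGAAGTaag
Gria4 flop: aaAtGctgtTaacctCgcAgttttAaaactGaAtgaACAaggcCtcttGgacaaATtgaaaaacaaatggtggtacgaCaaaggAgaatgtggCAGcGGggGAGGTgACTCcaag
Gria4 flip: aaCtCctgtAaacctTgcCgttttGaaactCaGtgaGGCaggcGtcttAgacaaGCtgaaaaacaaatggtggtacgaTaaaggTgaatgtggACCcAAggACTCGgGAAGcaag
Both genes lie on the minus strand, with the Gria2 exons at chr3:80691320-80691434 (flop) and chr3:80690404-80690518 (flip) and the Gria4 exons at chr9:4432773-4432887 and chr9:4427030-4427144. Across the 4 genes, the flip exons differed from each other at 9 to 14 bases and the flop exons at 6 to 14 bases. The differences within a gene, 31 to 36 bases, were thus larger than those between genes for the same form.

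Transcripts with flip were more abundant than those with flop in all 4 genes and both pools. Flip transcripts of Gria2 had 5.83 and 5.52 TPM and the flop transcript 1.31 and 1.65 TPM, a flip share of 81.7% in pool 1 and 77.0% in pool 2. For Gria4 the flip share was 93.6% and 89.9%, from 482 flip and 32.5 flop reads in pool 1 and 486 and 54.1 in pool 2. Gria1 was listed with flip alone in pool 1 (247 reads) and with a flip share of 69.1% in pool 2 (206 flip and 90.1 flop reads). Flop of Gria3 was at 0 in both pools, beside 271 and 279 flip reads. Over the class the flip share was 89.0% and 82.2%, or 85.6% ± 4.81. The deposited intervals of the flop transcripts overlapped between the pools for Gria1, Gria2 and Gria4, and Gria1-201, the flip transcript, lay just above its own interval in pool 1 (1.54 TPM, upper bound 1.53).

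These shares describe only part of the class. Transcripts with exactly 1 of the exons held 50.5% of AMPA TPM in pool 1 and 37.6% in pool 2. The annotated forms of Gria2 also differ elsewhere, the flop transcript Gria2-201 being 10371 nt and the flip transcript Gria2-202 being 4026 nt long, so reads on the longer 3′ end count as flop. Gria2-203 and Gria3-206, both subject to nonsense-mediated decay, hold both exons and were left out of the shares. For Gria1 and Gria4, whose forms end alike, the flip share together was 89.1%.

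**Figure D3:**
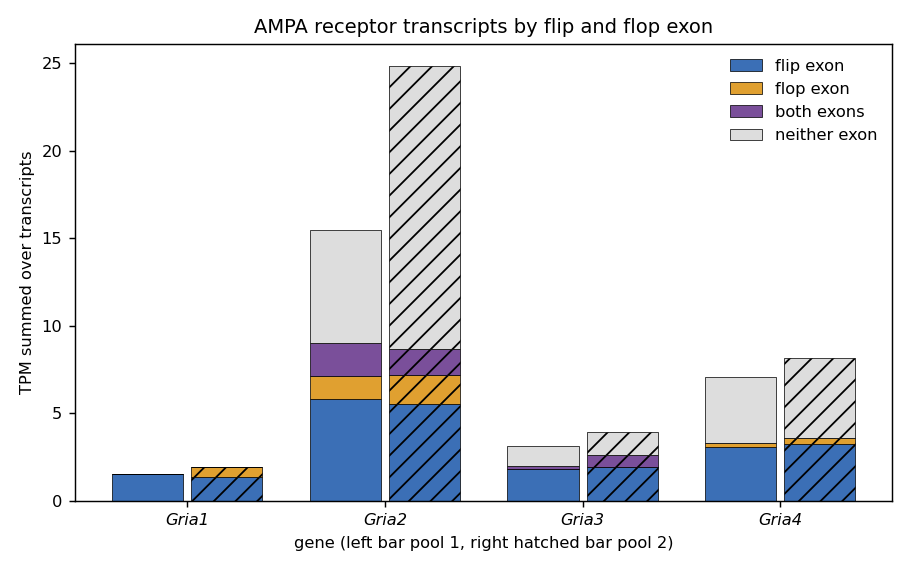
TPM of AMPA receptor transcripts with the flip exon (blue), the flop exon (yellow), both (purple) or neither (light grey), stacked for each gene; the left bar is pool 1 and the right, hatched bar pool 2. Blue exceeds yellow in every bar, Gria1 shows flop in pool 2 only, and the difference between the Gria2 bars lies in the light grey part.

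NMDA receptors combine the obligatory subunit encoded by Grin1 with subunits of the Grin2 and Grin3 families, and they pass calcium when glutamate and a co-agonist bind together. The 7 genes summed to 6.37 ± 0.651 TPM, and Grin1 was the only one detected in both pools. Grin1 had 2.75 and 2.81 TPM, but from 102 reads in pool 1 and 171 in pool 2. Non-coding transcripts held 76.3% and 50.5% of that TPM and 27.6% and 11.2% of the reads. Grin1-210, a processed transcript of 456 nt, alone held 36.5% and 23.5% of Grin1 TPM, from 10.5 and 6.68 reads. Protein-coding Grin1 transcripts summed to 0.65 TPM in pool 1 and 1.39 TPM in pool 2. These coding values rest on transcripts with few or no bases of their own, and 3 of them lay above their deposited intervals: Grin1-205 in pool 1 (0.43 TPM, upper bound 0.380) and Grin1-207 (0.80, upper bound 0.568) and Grin1-201 (0.46, upper bound 0.444) in pool 2.

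Grin2b, the Grin2 gene most prominent in embryonic brain, had 1.07 TPM from 134 reads and 0.95 TPM from 175 reads. Its reads were more and its TPM less in pool 2, where more of them fell to the 23640-nt transcript Grin2b-201 (61.8 and 151 reads). Grin2a, which becomes prominent after birth, had 0.56 and 0.96 TPM, of which the retained-intron transcript Grin2a-203 took 0.54 and 0.70 TPM. Coding Grin2a transcripts were left with 3.22 reads in pool 1 and 35.3 in pool 2. Grin2d had 0.33 and 0.42 TPM and Grin2c, typical of the mature cerebellum, 0.19 and 0.30 TPM. Of the glycine-binding Grin3 subunits, Grin3a had 0.78 and 1.05 TPM from 148 and 209 reads. Grin3b had 0.23 and 0.34 TPM from 15.1 and 16.9 reads, and 1059 nt of its exons overlap Tmem259 on the opposite strand, a gene at 11.0 TPM in both pools. Strand settings were not given in the sources used here, so Grin3b reads may not be separable from those of Tmem259.

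Kainate receptors form channels from Grik1 to Grik3 products, to which Grik4 and Grik5 products add high affinity. The 5 genes summed to 16.8 ± 0.431 TPM, with 16.5 in pool 1 and 17.1 in pool 2. Grik2 had 6.15 and 6.06 TPM and Grik5 had 5.04 and 6.04 TPM. Grik5 was below Grik2 in pool 1 and level with it in pool 2. Grik1 had 2.73 and 1.92 TPM, Grik3 had 1.61 and 1.98 TPM, and Grik4 had 0.93 and 1.07 TPM. The intervals of the pools did not overlap for Grik1, which was lower in pool 2, or for Grik3 and Grik5, which were higher. The same held for 43.8% of protein-coding genes with a mean of at least 1 TPM. Almost all Grik2 TPM, 6.12 and 6.07, fell on transcripts that GENCODE vM21 no longer lists, mainly 1 of 4800 nt with 76.3% and 68.1% of the gene, so its coding share was not determined here. Grik1, Grik3, Grik4 and Grik5 have no quantified transcript annotated as non-coding, so a non-coding share could not be measured for them.

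AMPA genes held 58.1% ± 5.02 of ionotropic receptor TPM, kainate genes 29.96% ± 4.15 and NMDA genes 11.3% ± 0.707. Over protein-coding transcripts and those not in vM21 the shares were 46.7% ± 0.219, 42.6% ± 1.76 and 9.73% ± 2.11. AMPA and kainate genes were then about equally abundant, with Grik2 counted in full although its coding share was not determined. Over protein-coding transcripts alone, which leave out almost all of Grik2, the AMPA share was 55.4%. The delta receptor gene Grid1, which encodes a synapse-organizing protein of the same family, had 0.39 and 0.35 TPM, from 68 and 59 reads, and was under 1 TPM in both pools.

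Metabotropic receptors of groups II and III reduce transmitter release and cyclic AMP, while group I receptors raise calcium inside the cell. The 7 genes summed to 12.7 ± 0.226 TPM. Grm2, a group II receptor, had 6.55 and 5.80 TPM from 620 and 528 reads and held 48.7% ± 3.32 of that sum. The other group II gene, Grm3, had 1.45 and 2.35 TPM from 147 and 228 reads, with intervals that did not overlap. The group thus stood at 8 and 8.15 TPM, with Grm2 lower and Grm3 higher in pool 2 by TPM. Scaled to the median protein-coding gene, the log2 pool ratio was 0.57 for Grm3 and only -0.03 for Grm2. The Grm2 intervals overlapped between the pools.

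In group III, Grm4 had 1.77 and 2.28 TPM and Grm8 had 1.06 and 1.26 TPM. Grm7 had 1.30 TPM from 87.8 reads in pool 1 and 0.48 TPM from 48 reads in pool 2, and 33.2% of its reads in pool 1 were on non-coding transcripts, against 0 in pool 2. Grm6, the receptor of retinal ON-bipolar cells, had 0 reads in pool 1, a count that allows up to 0.0314 TPM (3 reads), and 1 read in pool 2. Grm5, the group I gene, had 0.70 TPM from 106 reads and 0.33 TPM from 49 reads. Grm4 and Grm8 were the detected genes of the group, and both were higher in pool 2, whereas Grm5 and Grm7 were lower.

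Of the 2 plasma membrane transporters among the members, Slc1a2 had 12.5 TPM from 3210 reads and 13.6 TPM from 2932 reads. Slc1a2 is the glial transporter that clears most glutamate in the adult forebrain. Slc1a3, a clearance gene outside the 29, was higher, with 31.5 and 34.5 TPM from 3422 and 3163 reads. Slc1a2 had the most reads of the 29 genes in both pools, and came after Slc17a6 and Gria2 by mean TPM, which corrects for its long transcript. Slc1a2-202, of 11595 nt, held 73.1% and 63.6% of the TPM and 3085 and 2802 of the reads. Non-coding transcripts of at most 342 nt took 3.60% of Slc1a2 TPM in pool 1 and 17.3% in pool 2 from 2 and 9 reads. Coding transcripts summed to 12.0 and 11.2 TPM, the reverse order of the gene values. Slc1a1, a neuronal transporter, had 0.90 and 0.82 TPM from 88.7 and 79 reads. In its exons 2631 nt overlap 4430402I18Rik on the opposite strand, which had 0.54 and 0.21 TPM.

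The non-coding share of the receptor genes was set beside that of other genes. In the 7 members with a mean of at least 1 TPM and an annotated non-coding transcript, the median non-coding share was 8.47% in pool 1 and 17.3% in pool 2. In 7554 protein-coding genes chosen likewise it was 11.0% and 13.5%, above the members' median in pool 1 and below it in pool 2. Gria2, Gria3 and Grin1 lay far above both medians, Grm4, Grm8 and Slc1a2 at or below 17.3% in both pools, and Gria1 at 0.

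The pools were compared as log2 of TPM + 1 in pool 2 over pool 1, relative to the median protein-coding gene, whose own value was -0.12. With 1 library per pool this describes 2 libraries and has no replicate check. Over the 17 members with a mean of at least 1 TPM the relative log2 ratio had a median of 0.25 and ran from -0.23 for Grik1 to 0.77 for Gria2. It was above 0 for 14 of the 17 members, against 50% of protein-coding genes, and below 0 for Grik1, Slc17a6 and Grm2. Only Gria2 was more than 1.5-fold apart, against 3.15% of 13033 protein-coding genes with a mean of at least 1 TPM. Without the transcript Gria2-208 its relative log2 ratio was 0.28, and over protein-coding transcripts 0.15. Over protein-coding transcripts Grin1 (0.68) and Grm3 (0.59) passed 1.5-fold instead, and Grm3 was just short of it at 0.57 over all transcripts. Deposited intervals did not overlap for 6 of the 17 members, against 43.8% of protein-coding genes. Protein-coding genes with 100 to 1000 reads had an SD of 0.28 in this ratio and those with 1000 to 10000 reads an SD of 0.21. Of the 16 members in these read classes, Gria2 and Grm3 lay more than 2 SD from 0.

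Gene length moved with the ratio. Protein-coding genes spanning at least 100 kb had a median relative log2 ratio of 0.11, and 65.0% of 1979 were above 0, against 47.7% of 3115 genes under 10 kb. The 17 members spanned a median of 240 kb, against 25.1 kb for protein-coding genes with a mean of at least 1 TPM. Of the 12 members spanning at least 100 kb, 11 were above 0, with a median of 0.28. The share of TPM on non-coding transcripts in genes of 300 kb or more was 15.1% in pool 1 and 19.2% in pool 2, against 9.04% and 9.41% in genes under 10 kb. The part of gene length in the members' ratios was not tested. The lower sensory ganglion and muscle markers of pool 2, given above, went the same way as Slc17a6 and Grik1, and their part in those values was not tested either.

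**Figure D4:**
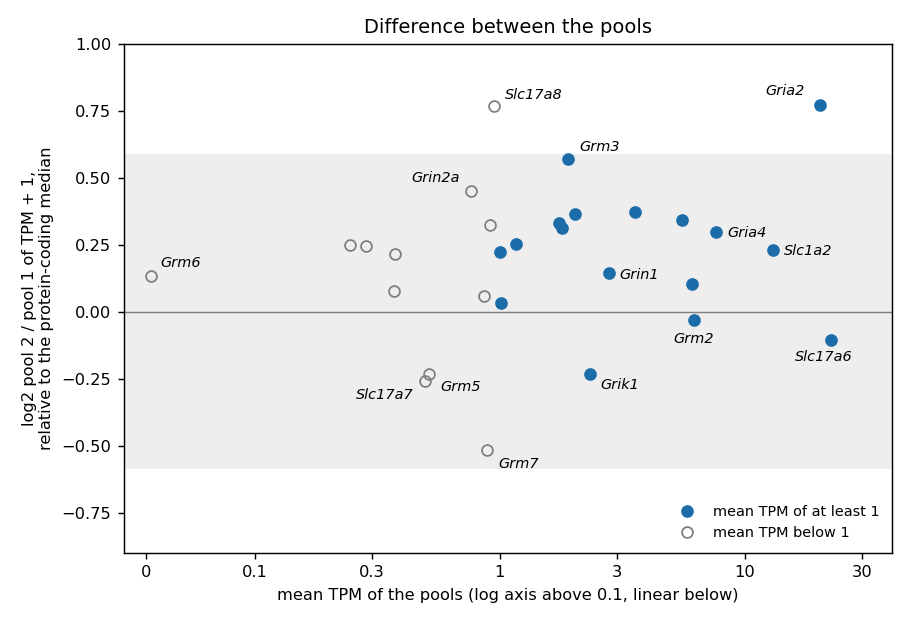
Log2 ratio of TPM + 1 in pool 2 over pool 1, relative to the median protein-coding gene (vertical axis), against mean TPM (horizontal axis, logarithmic above 0.1) for the 29 genes; filled points have a mean of at least 1 TPM, and the grey band spans 1.5-fold either way. Gria2 at 0.77 is the only filled point outside the band, and most filled points lie above 0.

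Genes that work with the receptors were described from 6 lists. Auxiliary subunits of AMPA and kainate receptors, which set trafficking and gating, were detected in 7 of 13 cases. Cnih2, a cornichon protein that escorts AMPA receptors from the endoplasmic reticulum, had 96.0 and 89.3 TPM, above every AMPA subunit gene. Cacng4, a transmembrane regulator of AMPA receptors, had 21.4 and 21.1 TPM, and Neto2, an auxiliary subunit of kainate receptors, 23.4 and 16.8 TPM. Neto1, also a kainate receptor partner, was lowest with 0.48 and 0.22 TPM. The median of the list was 1.43 ± 0.0636 TPM, so that the 3 leading genes stood apart from the rest.

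Postsynaptic scaffolds, which anchor receptors under the membrane, were detected in 16 of 18 cases, with a median of 4.82 ± 0.0354 TPM. Dlgap4 led with 124 and 117 TPM, before Homer3, a partner of group I metabotropic receptors, with 38.8 and 34.4 TPM, and Pick1, which binds AMPA subunits, with 17.9 and 19.3 TPM. Grip2 was lowest with 0.42 and 0.40 TPM. Of 17 scaffold genes with a mean of at least 1 TPM, 14 had a relative ratio above 0, against 50% of protein-coding genes. More than 1.5-fold higher in pool 2 were 3 (Dlg2, Dlg3 and Dlgap2), whereas 3.15% of protein-coding genes were that far apart in either direction. Dlg3 had 6.07 and 9.40 TPM from 559 and 781 reads. Dlg2 rested on 78 and 137 reads. Dlgap2 had 1.75 and 3.45 TPM, but from 160 and 201 reads.

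Genes of glutamate synthesis and clearance were detected in 9 of 11 cases, with a median of 37.7 ± 3.73 TPM. The amino acid transporter gene Slc38a2 had 164 and 138 TPM, the glutamine synthetase gene Glul 95.1 and 93.0 TPM, and the glutamate dehydrogenase gene Glud1 73.9 and 59.9 TPM. Slc1a7, a retinal glutamate transporter, had no reads. None of the list was more than 1.5-fold apart. Enzymes of glutamate metabolism also serve cells that release no glutamate.

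Among RNA-editing enzymes, Adarb1, which edits the Gria2 transcript at the site that controls calcium entry, had 3.86 and 4.17 TPM. Adar had 13.4 and 11.0 TPM, and Adarb2, a family member without known editing activity, had 4.13 and 6.39 TPM and was more than 1.5-fold higher in pool 2. Edited bases cannot be read from these tables. For the NMDA co-agonist D-serine, the racemase gene Srr had 21.9 and 17.6 TPM, the transporter gene Slc7a10 had 4.59 and 5.23 TPM, and the oxidase gene Dao had no reads.

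All 11 transcription factors of glutamatergic lineages were detected, with a median of 16.8 ± 2.38 TPM. Pou4f1, which marks sensory ganglia as well as hindbrain neurons, had 53.1 and 38.1 TPM and Neurod1, a factor of neuronal differentiation, 24.4 and 21.8 TPM. Lmx1b was lowest with 3.14 and 3.47 TPM. A relative ratio below 0, the direction of Slc17a6, was found for 7 of the 11. All 6 markers of inhibitory neurons were above 0 in the same measure, with a median of 0.24. The share above 0 was 50% over protein-coding genes with a mean of at least 1 TPM.

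**Figure D5:**
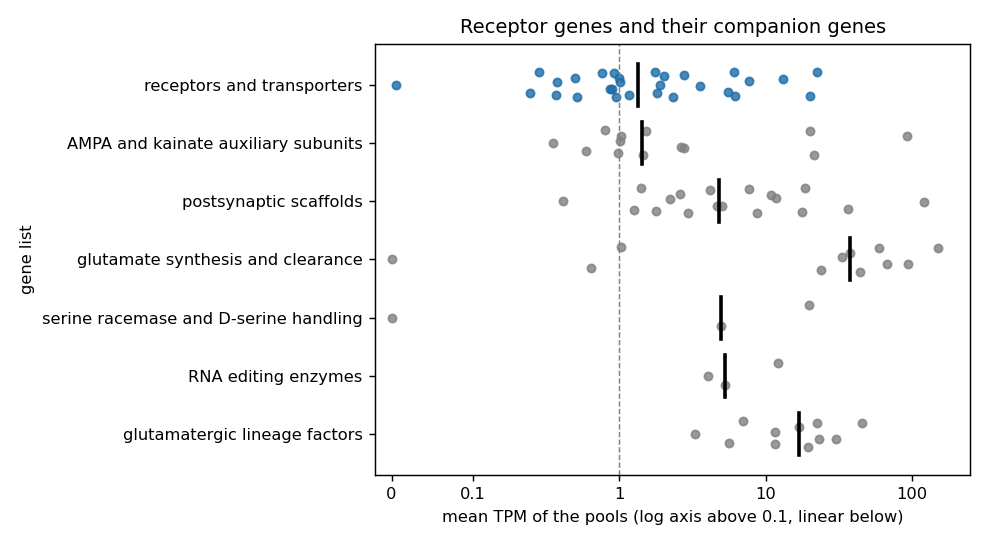
Mean TPM of the pools for each of the 29 receptor and transporter genes (blue) and each gene of 6 companion lists (grey), with a black bar at the list's median TPM; the axis is logarithmic above 0.1 and linear below, and the dashed line marks 1 TPM. The receptor genes and the auxiliary subunits have the lowest medians, 1.34 and 1.43 TPM, and genes of glutamate synthesis and clearance the highest, 37.7 TPM.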

How the data were processed

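The labels give mirVana extraction, ERCC spike-ins and the assembly mm10, which is GRCm38. A readme beside the tables names GENCODE M4. The aligner, the quantification tool and strand settings were not given in the sources used here. Per the file headers, the authors deposited for each gene and transcript an expected count, an estimated count called reads in the text, and TPM and FPKM. They also deposited lower and upper bounds of a TPM interval, a signal on the TPM scale whose level is not given, and for transcripts an isoform percent of the gene. Spike-ins are part of the total to which the deposited TPM is scaled.

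Symbols, gene types, coordinates and transcript types came from GENCODE vM21, matched on Ensembl identifiers without version (42462 of 43346 genes). Of 123 transcripts of the 29 genes, 8 (of 3 genes) were not in vM21. Transcripts counted as coding only if vM21 calls them protein-coding. Flip and flop exons were found as neighbouring 115-nt exons and told apart by their translation. Spans and overlaps are those of vM21.

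The members and gene lists were chosen with earlier results of these data known. Text names all 29 members, transcripts with at least 10% of their gene's TPM in either pool for genes with a mean of at least 1 TPM, the 3 highest and 1 lowest genes of each companion list, and those over 1.5-fold apart with a mean of at least 5 TPM; other transcripts and genes, the serotonergic list and Slc32a1 were named after their values were seen, and marker lists are mostly given by counts. Some genes that the rule selects are left out of the text. Shares of TPM were computed within each library. The pool ratio used a pseudocount of 1. With 1 group there was no test and no p-value. Ratios and threshold calls were tested on simulated data. Depth was 45340440 and 41261544 expected counts, and counting error alone is covered by the limit for a count of 0 (3 reads).

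Alternatives were other thresholds, a pseudocount of 0.1, no filter, a filter of 100 reads, FPKM, TPM rescaled over protein-coding genes, coding transcripts only, list means, each pool alone, and expected counts, rounded to whole numbers, scaled by edgeR 4.0.16 TMM or DESeq2 1.42.0 size factors in R 4.3.3. Other steps used Python 3.11.15, pandas 2.3.3, NumPy 2.4.6, Biopython 1.88 and Matplotlib 3.10.9.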

Additional observations from a re-analysis of the deposited data

How the results depend on the processing

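The number of detected members was 7 at a threshold of 5 TPM in place of 15. The median TPM of the members was 1.92 when TPM was rescaled over protein-coding genes, 1.10 over protein-coding transcripts and 1.22 with transcripts not in vM21 added, and the mean over members was 3.70. The AMPA share of ionotropic TPM was 46.7% over protein-coding transcripts and those not in vM21. The flip share was 75.7% by expected counts of transcripts, which give more weight to the long Gria2-201. The median relative log2 ratio of the members between the pools was 0.13 with no filter, 0.38 with TMM and 0.38 with DESeq2 size factors.

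The count of members over 1.5-fold apart was 2 with a pseudocount of 0.1 (Gria2 and Grm3), 3 with no filter (Gria2, Slc17a8 and Grm7, the last lower in pool 2) and 2 with at least 100 reads (Gria2 and Slc17a8). It was 2 with TMM or DESeq2 scaling of expected counts and 2 over protein-coding transcripts, with or without those not in vM21. In these last 4 settings the genes were Grin1 and Grm3 and not Gria2, whose relative log2 ratio was 0.56 with TMM and with DESeq2. Of the 17 members with a mean of at least 1 TPM, Grin2b alone changed the sign of its relative ratio among the alternatives run. Its ratio went from 0.03 to -0.03 with a pseudocount of 0.1 and to -0.06 with no filter. Signs of the other members were not followed. The setting that adds transcripts not in vM21 and the flip share of Gria1 and Gria4 alone were chosen after the data were seen.

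Fewer than 100 reads in each pool lay behind 10 of the 29 genes, and counting and the assignment of reads to transcripts limit what can be read from their ratios. No paired analysis was possible because the series holds 1 group.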
